A study of Arabidopsis thaliana with 48 samples.

Results

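The nuclear genes of the photosystems and of their light-harvesting antennae were followed in Arabidopsis thaliana seedlings in which β-estradiol switches on an HD-ZIPIII transcription factor, that is, a homeodomain leucine zipper protein of class III. The genes were taken by a fixed list of identifiers. They comprise 6 LHCA and 15 LHCB antenna genes, 12 nuclear genes of photosystem I subunits (PSA) and 11 of photosystem II subunits (PSB). These are 44 of the 28496 genes in the count tables, and all 44 passed the filter on low counts and stood among the 18909 genes tested.

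CORONA (CNA) and PHABULOSA (PHB) are both HD-ZIPIII factors, and 8 lines were measured. These were CNA and CNA-SDdelta, PHB and PHB-SDdelta, the pair CNA-KnC3HDZ and CNA-KnC3HDZ_8m, and the lines CNA-PpHOX32 and CNA-SmHOX32. Some of the constructs are chimeras of CNA, according to the submitters, and the suffixes are not explained in the sources used here. Induced seedlings of the T2 generation, 9 days old on agarose plates, were sprayed 10 times with 50 µM β-estradiol together with DMSO (1%) and the wetting agent Silwet L-77 (0.005%). Mock seedlings of the same line received DMSO and Silwet L-77 alone. Whole seedlings were collected 24 h later, at 10 days, and each of the 16 groups gave 3 libraries labelled as biological replicates, 48 in all. Every group, mock included, carried a construct, and no line without one was analysed here, so an effect of β-estradiol itself cannot be told apart from that of the constructs. The promoter of the constructs, the number of transformants behind a line and the hour of harvest are not given in the sources used here.

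The libraries are of the QuantSeq type, which reads the 3' end of polyadenylated transcripts. Their totals ran from 1808765 counts (replicate 3 of induced PHB) to 37222617 counts (replicate 2 of induced CNA-KnC3HDZ). As a check of the labels, the induced factor's own gene was called higher in 7 of the 8 lines. The exception was CNA-SDdelta, with a log2 fold change of 0.99 for CNA (edgeR quasi-likelihood test, adjusted p 0.216). A gene is called where that test's p, adjusted over all tested genes by the Benjamini-Hochberg method, is under 0.05. CPM are counts per 1000000 of the TMM-scaled library total.

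Photosystem II splits water and passes electrons through the cytochrome b6f complex to photosystem I, which reduces ferredoxin. LHCB proteins collect light mainly for photosystem II, with LHCB1, LHCB2 and LHCB3 in the trimeric antenna and LHCB4, LHCB5 and LHCB6 as monomers between the trimers and the core. LHCA proteins form the antenna of photosystem I. All of these proteins are made in the cytosol and imported into the chloroplast, where they join core subunits encoded by the plastid genome. The plastid genes are not analysed here. In leaves, transcription of the nuclear genes depends on light, on the circadian clock and on the GLK transcription factors, and G-box (CACGTG) and I-box (GATAAG) elements are known from their promoters.

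Promoter sequence was read from the RefSeq assembly TAIR10.1, 250 bases before the annotated gene start, and both strands were searched. The letters CACGTG stood in the promoters of 10 of the 44 genes (22.7%), against 6.45% of 28000 promoters of the same length. GATAAG stood in 9 (20.5%), against 12.3% of all. CCAAT stood in 28 (63.6%, against 45.8% of all), TATAAA in 19 (43.2%, against 47.7%) and AATNATTA, a core that homeodomain leucine zipper proteins of several classes can bind, in 3 (6.82%, against 17.2%). None of these motifs contains another. The median log2 fold change over the mean of the 8 inductions was -1.84 for the 9 genes with GATAAG and -1.12 for the 35 without, given as a description and not tested. Windows of 30 bases are printed for the 6 genes with GATAAG with the largest mean responses, all of them LHCB or photosystem I genes. GATAAG, or CTTATC where it lies on the other strand, is in capitals, and each sequence runs 5' to 3' on the strand of its gene.
LHCB2.1, chr2:1824684-1824713, minus strand: tttattatataaGATAAGattcacatattt
LHCB4.2, chr3:2717527-2717556, plus strand: agataacgcgagctttttataGATAAGgct
LHCB6, chr1:5447949-5447978, minus strand: aatttagatttaGATAAGtaaagtattaga
PSAD1, chr4:1230328-1230357, minus strand: tagatttgggatGATAAGtagtaacctcgg
PSAH2, chr1:19454702-19454731, plus strand: attagagatagcCTTATCtttttataatcc
PSAK, chr1:10722104-10722133, plus strand: cgatgagacagtCTTATCcagagttgaaat
The other 3 genes with GATAAG had mean log2 fold changes of -1.11 (LHCA1), -0.80 (PSAF) and -1.50 (PSBQ2). The median was -1.44 for the 10 genes with CACGTG and -1.15 for the 34 without. For CCAAT it was -1.19 in the 28 genes with it and -1.24 in the 16 without. Splits by other properties also gave unequal medians. It was -1.06 for the 22 genes with the higher mock levels and -1.45 for the other 22. By GC content of the last 500 exonic bases it was -1.12 for the 22 higher genes and -1.40 for the other 22. None of these splits was tested. PSAH2 holds CACGTG in 2 places, and LHCB2.3, the gene with the largest mean response, holds it in 1. Their windows, with CACGTG in capitals, follow.
PSAH2, chr1:19454719-19454748, plus strand: ctttttataatcCACGTGgcatttcctaag
PSAH2, chr1:19454768-19454797, plus strand: gatgacaacccaattcgcCACGTGgcagaa
LHCB2.3, chr3:10255806-10255835, plus strand: acatatcttctaCACGTGaatctagtttgt
A match of letters is a description of the sequence. Binding was not measured.

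The mean level of the 44 genes was lower in induced seedlings of all 8 lines, and in CNA-KnC3HDZ the antenna genes taken alone overlapped between induced and mock libraries. The module mean, the mean log2 CPM over the 44 genes in a library, lay in each line below every mock library in all 3 induced libraries. In CNA it was 8.26 ± 0.16 in induced and 9.73 ± 0.11 in mock libraries (SD, n = 3 each), a difference of -1.47. In PHB it was 7.56 ± 0.18 in induced and 9.16 ± 0.17 in mock libraries, a difference of -1.60. The SDdelta lines showed somewhat smaller differences, and the induced factor's own gene also had smaller log2 fold changes in them. The module mean of CNA-SDdelta was 8.89 ± 0.02 in induced and 10.00 ± 0.17 in mock libraries, a difference of -1.11. That of PHB-SDdelta was 7.91 ± 0.18 in induced and 9.13 ± 0.14 in mock libraries, a difference of -1.22. Of the 8 lines, CNA-PpHOX32 had the largest difference and CNA-KnC3HDZ the smallest. The module mean of CNA-PpHOX32 was 7.59 ± 0.14 in induced and 9.55 ± 0.39 in mock libraries, a difference of -1.96. In CNA-KnC3HDZ it was 8.61 ± 0.29 in induced and 9.17 ± 0.11 in mock libraries, a difference of -0.56, and of -0.72 without the induced library with the largest total, replicate 2. The remaining pair lay between those extremes. In CNA-KnC3HDZ_8m the module mean was 7.89 ± 0.20 in induced and 9.62 ± 0.10 in mock libraries, a difference of -1.73, and in CNA-SmHOX32 it was 7.87 ± 0.28 in induced and 9.48 ± 0.21 in mock libraries, a difference of -1.61. No p is given for the module mean. The means over the LHCA, LHCB, photosystem I and photosystem II genes taken apart were also lower, with no overlap between induced and mock libraries, in each line but CNA-KnC3HDZ. In CNA-KnC3HDZ the LHCA mean was 7.94 ± 0.33 in induced and 8.19 ± 0.18 in mock libraries, a difference of -0.25, and the LHCB mean was 8.32 ± 0.37 in induced and 8.90 ± 0.18 in mock libraries, a difference of -0.58, and in both the groups overlapped. The photosystem I and photosystem II means did not overlap there, with differences of -0.52 and -0.75. In the other 7 lines the difference lay between -1.65 (CNA-SmHOX32) and -0.72 (CNA) for LHCA and between -2.44 (CNA-PpHOX32) and -1.27 (PHB-SDdelta) for LHCB. The 44 genes together took from 2.3% to 5.94% of a library's counts in the 24 induced libraries (median 3.13%), against 5.09% to 10.3% in the 24 mock libraries (median 7.15%). In whole seedlings, fewer green cells and less RNA of these genes per cell cannot be told apart.

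**Figure D1:**
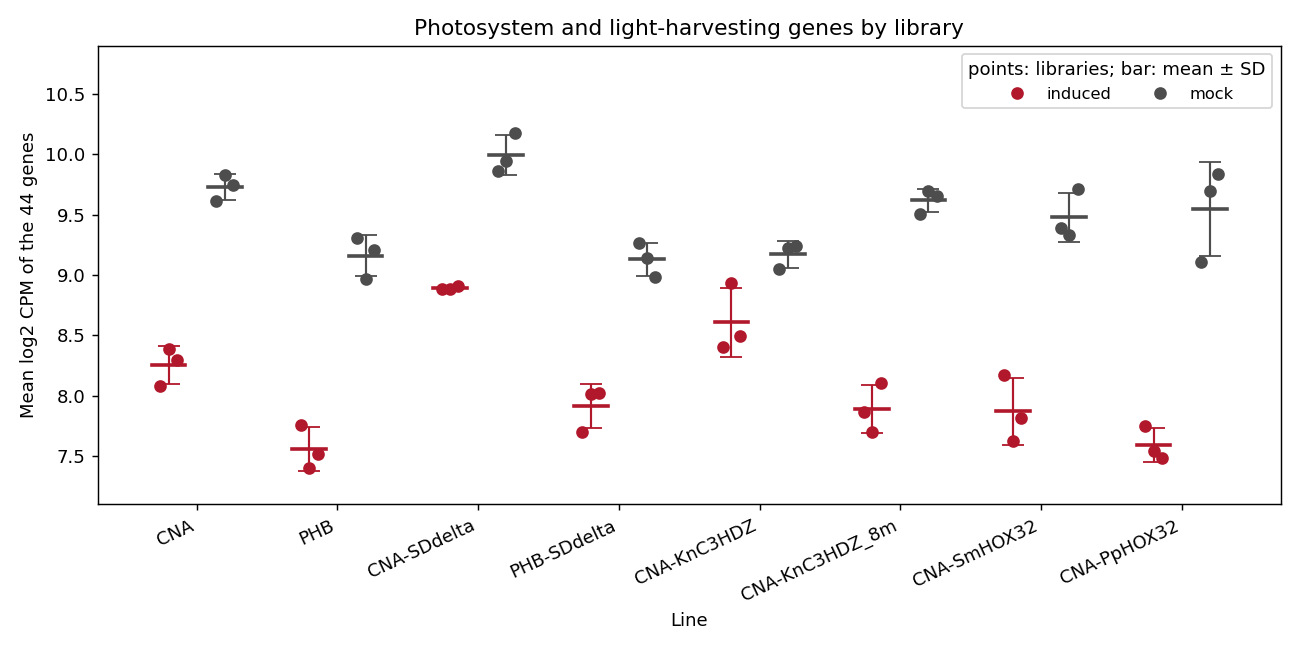
Mean log2 CPM of the 44 photosystem and light-harvesting genes in each of the 48 libraries, by line, with induced libraries left of mock libraries, and bars for the mean ± SD over 3 libraries. Induced libraries ran from 7.40 to 8.93 and mock libraries from 8.97 to 10.2, and within each line the groups do not overlap.

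Counted gene by gene, lower calls outnumbered the background in each line, and no member was called higher in any induction by edgeR or by DESeq2. Of all tested genes, edgeR called 4.05% higher in CNA, 2.71% in CNA-SDdelta, 4.44% in PHB, 3.59% in PHB-SDdelta, 4.74% in CNA-SmHOX32 and 1.56% in CNA-PpHOX32. It called 3.51% of all tested genes higher in CNA-KnC3HDZ_8m and 1.19% in CNA-KnC3HDZ. At an unadjusted p under 0.05, LHCB4.1 in CNA-KnC3HDZ was the 1 member higher (0.40, adjusted p 0.388). In CNA, 38 of the 44 genes were called lower, against a background of 3.96% of all tested genes. In PHB, 41 were called lower (background 4.99%). In CNA-SmHOX32 and in CNA-PpHOX32 40 were called lower, with backgrounds of 5.38% and 3.92%. PHB-SDdelta had 38 called lower (background 3.44%) and CNA-KnC3HDZ_8m 39 (background 3.51%). In CNA-SDdelta 31 were called lower (background 2.09%), and 20 without mock replicate 3 of that line. Fits without a library also differed from the main fit in how the spread was set. CNA-KnC3HDZ stood apart with 9 genes called lower, 20.5% of the 44, against a background of 2.11%. That count was 14 with no filter on low counts and 18 when only that line's libraries entered the fit. The median log2 fold change of the 44 genes was nearest to 0 in CNA-KnC3HDZ (-0.45), followed by CNA-SDdelta (-0.86), PHB-SDdelta (-1.14), CNA (-1.22), CNA-SmHOX32 (-1.29), PHB (-1.48), CNA-KnC3HDZ_8m (-1.65) and CNA-PpHOX32 (-1.68). The same median over all tested genes lay between -0.08 (CNA) and 0.08 (CNA-SmHOX32).

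The libraries were also compared without a test. All 3 induced libraries lay below all 3 mock libraries for 42 genes in CNA (14.6% of all tested genes did so) and 42 in CNA-SDdelta (11.9%), and for 41 in PHB (14.6%) and 37 in PHB-SDdelta (13.0%). CNA-PpHOX32 had 41 such genes (9.65%), CNA-SmHOX32 40 (8.01%), CNA-KnC3HDZ_8m 40 (13.8%) and CNA-KnC3HDZ 23 (12.1%). In none of the 8 lines did a member have all induced libraries above all mock libraries. The share of all tested genes in that direction is not given here, so how unusual this is cannot be told. In the mean of the 8 inductions, 43 of the 44 were called lower, against a background of 14.3%, with a median log2 fold change of -1.2. The exception was LHCB4.3, an LHCB4 copy known from high light, which reached at most 5.65 CPM in any library (-0.67 ± 0.48, SE, adjusted p 0.333).

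**Figure D2:**
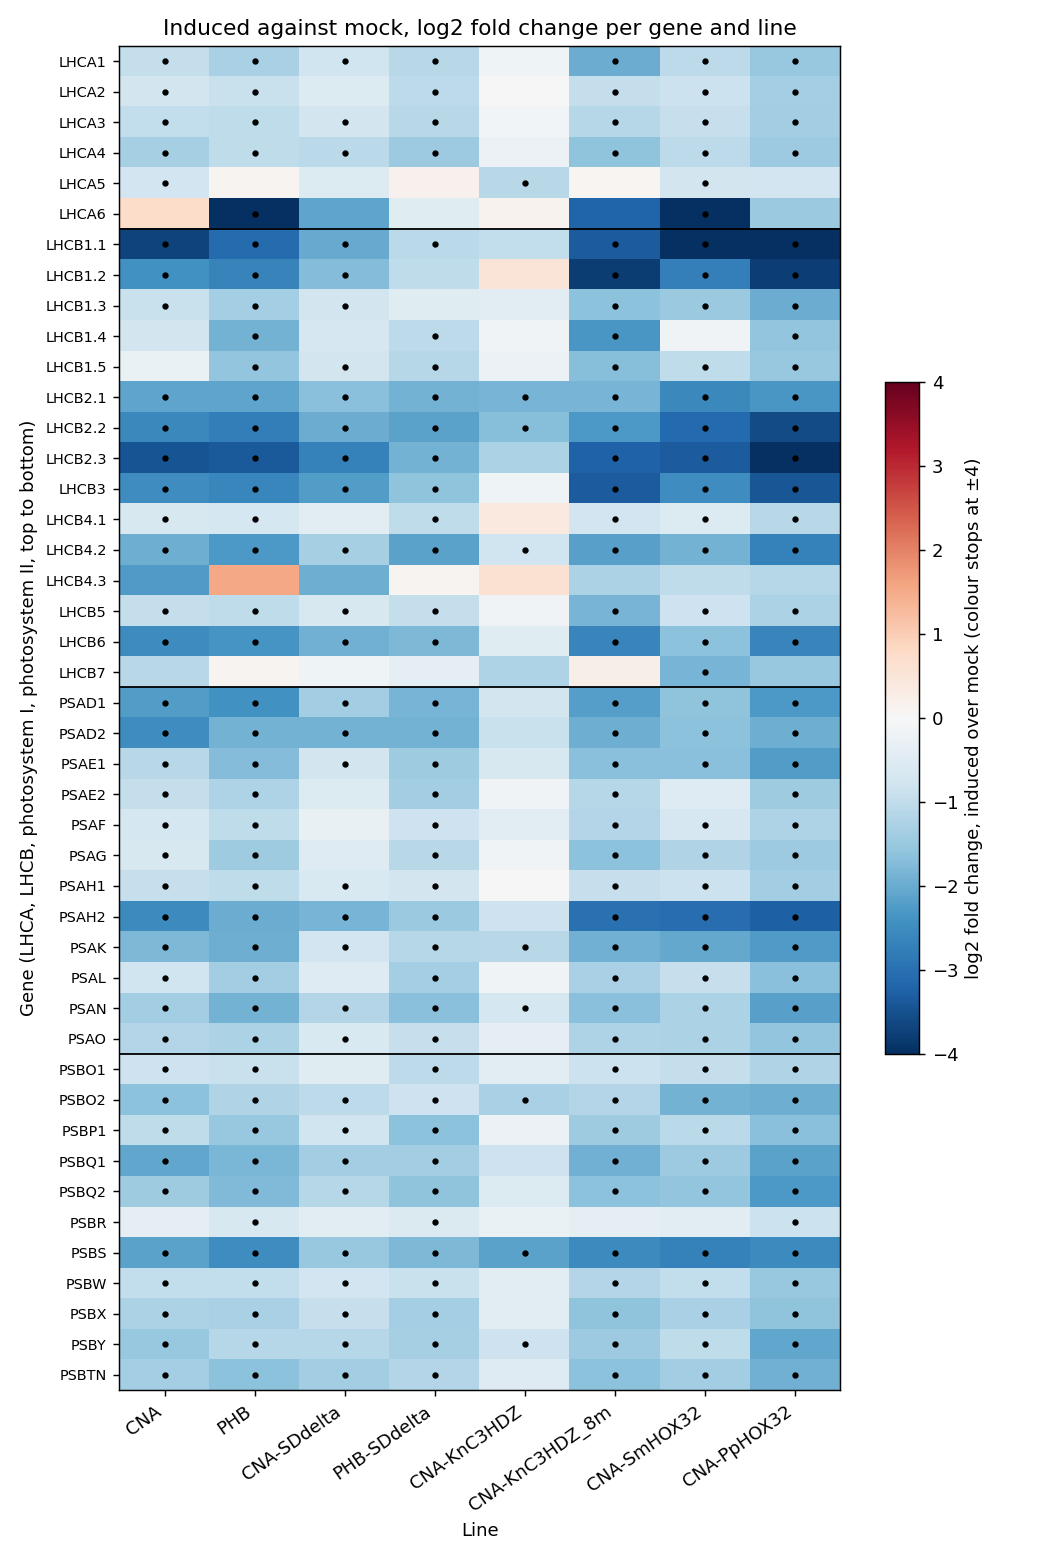
Log2 fold change, induced over mock, of each of the 44 genes (rows, by subgroup) in each line (columns), with a dot where the gene is called. Colour stops at ±4, and the fitted values of LHCA6 in PHB and CNA-SmHOX32 rest on induced libraries with 0 to 2 counts. Blue cells with dots fill most of the map, and CNA-KnC3HDZ has dots in 9 rows.

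In the mean of the 8 inductions, the largest 3 responses were those of LHCB genes, the light-harvesting genes of photosystem II (LHCB2.3, LHCB1.1 and LHCB2.2). The next was that of LHCA6 (-2.44), a gene at its counting floor in 2 lines. By line, 3 of the 15 LHCB genes were called lower in CNA-KnC3HDZ, 11 in CNA, CNA-SDdelta and PHB-SDdelta, and 13 in the other 4 lines. Of the 15 LHCB genes, 14 were called lower in the mean of the 8 inductions, with a median log2 fold change of -1.91 over the 15. The largest mean response was that of LHCB2.3 (AT3G27690), a copy of the trimeric antenna protein LHCB2. LHCB2.3 had 33.1, 33.6 and 15.3 CPM in induced CNA libraries, against 235, 340.2 and 312 CPM in mock. In PHB it had 24.3, 25.1 and 8 CPM in induced libraries, against 255, 157 and 204 CPM in mock. These groups were far apart, and the induced and mock libraries of LHCB2.3 did not overlap in any of the 8 lines. In CNA-SDdelta it had 68.9, 63.0 and 41.6 CPM induced, against 311, 297 and 513 CPM mock. PHB-SDdelta gave 17.4, 79.0 and 48.3 CPM induced, against 228, 152 and 152 CPM mock. The 3 induced libraries of PHB-SDdelta were the more scattered, all still below the mocks. CNA-KnC3HDZ gave 45.8, 122 and 62.4 CPM induced, against 163, 192 and 207 CPM mock. CNA-KnC3HDZ_8m gave 30.6, 14.5 and 41.6 CPM induced, against 244, 349 and 202 CPM mock. Induced CNA-KnC3HDZ_8m libraries were the lower of that pair. CNA-SmHOX32 gave 21.8, 9.35 and 2.17 CPM induced, against 132, 79.9 and 128 CPM mock. In CNA-PpHOX32 the mock libraries themselves were spread widely, with 12.6, 3.14 and 6.61 CPM induced, against 31.8, 217 and 218 CPM mock. The mean response of LHCB2.3 was -2.93 ± 0.18 (SE, adjusted p 3.35e-21), and it was called lower in 7 lines, CNA-KnC3HDZ being the exception.

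LHCB2.1 (AT2G05100) and LHCB2.2 (AT2G05070), the other LHCB2 copies, were called lower in all 8 lines. LHCB2.1 was the member with the smallest adjusted p in CNA-KnC3HDZ and in CNA-SmHOX32. It had 803, 790.4 and 539 CPM in induced CNA-KnC3HDZ libraries, against 2294, 2994 and 2436 CPM in mock, giving a log2 fold change of -1.86 ± 0.21 (± SE) at an adjusted p of 2.90e-09. In CNA-SmHOX32 it had 1243, 679.9 and 1102 CPM in induced libraries, against 6326, 5334 and 6312 CPM in mock, giving a log2 fold change of -2.57 ± 0.21 (± SE) at an adjusted p of 3.38e-13. The induced libraries were the lower ones in both lines, with a wide gap to the mocks. LHCB2.2 had the smallest adjusted p in CNA-PpHOX32, with 189, 163 and 194 CPM in induced libraries, against 1114, 2421 and 2940.0 CPM in mock. Its log2 fold change there was -3.57 ± 0.27 (SE, adjusted p 2.24e-15). Summed over the 3 copies, LHCB2 had a mean response of -2.20 ± 0.08 (SE).

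The 5 LHCB1 copies encode near-identical trimeric antenna proteins but differed in their response. LHCB1.1, LHCB1.2 and LHCB1.3 lie within 6835 bases on chromosome 1, and LHCB1.4 and LHCB1.5 within 3395 bases on chromosome 2. LHCB1.1 (AT1G29920) had a mean response of -2.85 ± 0.13 (SE, adjusted p 2.98e-27), the second largest of all 44 genes, and LHCB1.2 one of -2.20 ± 0.14. The other copies had mean responses of -1.12 ± 0.08 (LHCB1.3), -1.06 ± 0.10 (LHCB1.4) and -1.03 ± 0.08 (LHCB1.5), all called lower. In CNA, LHCB1.1 had 173, 299 and 323 CPM in induced libraries, against 2804, 3920.4 and 3706 CPM in mock. PHB gave 149.7, 165 and 351 CPM induced, against 2377, 1259 and 1990.4 CPM mock. In both lines no induced library reached a mock one. CNA-SDdelta gave 861, 576 and 1163 CPM induced, against 3999, 2538 and 3903 CPM mock, and PHB-SDdelta gave 507, 821 and 1322 CPM induced, against 2303, 2160.4 and 1176 CPM mock. PHB-SDdelta was the 1 line in which the libraries of LHCB1.1 overlapped. CNA-KnC3HDZ gave 975, 1367 and 619 CPM induced, against 1526, 2169.9 and 2177 CPM mock, and there it was not called (-0.99 ± 0.34, SE, adjusted p 0.124). In CNA-KnC3HDZ_8m the values were 341, 189 and 512 CPM induced, against 3047, 3692 and 3692 CPM mock. CNA-PpHOX32 and CNA-SmHOX32 had the lowest induced means. CNA-SmHOX32 gave 334, 168 and 131 CPM induced, against 3093, 3473 and 4817 CPM mock, and CNA-PpHOX32 127, 166 and 127 CPM induced, against 1513, 3164 and 4313 CPM mock. Summed over the 5 copies, LHCB1 had a mean response of -1.25 ± 0.08 (SE).

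The promoters of the neighbours LHCB1.1 and LHCB1.3 are printed because their mean responses stood far apart, a difference that was not tested as such. CCAAT, or ATTGG on the other strand, is in capitals. The promoter identity of the pair was 43.9% over a global alignment, and neither holds any of the other motifs searched. Among all pairs of LHCB1 promoters the identity ran from that value to 55.4% (LHCB1.1 and LHCB1.5). CCAAT stood in 2 places in LHCB1.1, LHCB1.4 and LHCB1.5, with mean responses of -2.85, -1.06 and -1.03. It stood in 1 place in LHCB1.2 and LHCB1.3, with mean responses of -2.20 and -1.12.
LHCB1.1, chr1:10475970-10476219, minus strand: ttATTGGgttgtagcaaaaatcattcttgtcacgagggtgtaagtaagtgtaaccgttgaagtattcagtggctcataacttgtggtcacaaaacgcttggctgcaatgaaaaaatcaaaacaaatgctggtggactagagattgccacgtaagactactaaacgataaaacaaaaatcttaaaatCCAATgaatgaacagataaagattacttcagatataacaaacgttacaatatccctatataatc
LHCB1.3, chr1:10477635-10477884, plus strand: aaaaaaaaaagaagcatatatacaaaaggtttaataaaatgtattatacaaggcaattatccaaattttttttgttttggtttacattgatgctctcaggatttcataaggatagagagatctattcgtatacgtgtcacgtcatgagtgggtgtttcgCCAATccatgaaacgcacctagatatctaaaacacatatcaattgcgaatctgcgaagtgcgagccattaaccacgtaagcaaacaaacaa
Reads of close copies can be assigned wrongly. Over the last 500 exonic bases, identity ran from 35.9% (LHCB1.1 and LHCB1.3) to 69.2% (LHCB1.2 and LHCB1.5) among the LHCB1 copies, with longest shared runs of 17 to 74 bases. The splits between copies are uncertain to that extent.

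Of the remaining antenna genes of photosystem II, LHCB3, LHCB4.2 and LHCB6 changed most. LHCB3, the third protein of the trimers, had a mean response of -2.3 ± 0.13 (SE, adjusted p 3.39e-23). LHCB6 (AT1G15820), a monomeric antenna protein, had the smallest adjusted p of the 44 genes in CNA, CNA-SDdelta and CNA-KnC3HDZ_8m. It had 165, 126 and 218 CPM in induced CNA libraries, against 864, 998 and 1064 CPM in mock, giving a log2 fold change of -2.52 ± 0.24 (± SE) at an adjusted p of 5.18e-12. In CNA-SDdelta it had 369.9, 365 and 349 CPM in induced libraries, against 1230.3, 1298 and 1592 CPM in mock, giving a log2 fold change of -1.93 ± 0.23 (± SE) at an adjusted p of 1.3e-08. CNA-KnC3HDZ_8m gave 253, 190.0 and 263 CPM induced, against 1282, 1676 and 1458 CPM mock, giving a log2 fold change of -2.65 ± 0.24 (± SE) at an adjusted p of 4.62e-13. In each of these lines every induced library was far below every mock library. LHCB4.2 (AT3G08940), a copy of the monomeric antenna protein LHCB4, had the smallest adjusted p in PHB and PHB-SDdelta. Induced PHB libraries had 226, 225 and 212 CPM, against 1132, 1016 and 1086 CPM in mock, giving a log2 fold change of -2.29 ± 0.20 (± SE) at an adjusted p of 1.07e-13. Induced PHB-SDdelta libraries had 172, 221 and 262 CPM, against 992, 995 and 875 CPM in mock, giving a log2 fold change of -2.13 ± 0.20 (± SE) at an adjusted p of 1.69e-12. The GATAAG windows of LHCB4.2 and LHCB6 are among those printed above. LHCB5, another monomeric antenna protein, and the copy LHCB4.1 had smaller mean responses, of -0.96 ± 0.07 and -0.61 ± 0.06. LHCB7, a rare antenna gene, was called lower in CNA-SmHOX32 alone among the lines.

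The 6 LHCA genes, the antenna of photosystem I, were all called lower in the mean of the 8 inductions. LHCA1 to LHCA4, which make up the main antenna belt, had mean responses from -1.15 (LHCA4) to -0.80 (LHCA2), and each was called lower in 6 or 7 lines. LHCA5 and LHCA6, known in Arabidopsis for linking photosystem I to the NDH complex, behaved less uniformly. LHCA5 had a mean response of -0.45 ± 0.09 (SE, adjusted p 5.98e-05) and was called lower in 3 lines. LHCA6 was counted at low levels, at most 29.5 CPM in any library. Induced PHB libraries of LHCA6 had 0.251, 0.193 and 0 CPM, against 8.61, 1.43 and 14.0 CPM in mock, and induced CNA-SmHOX32 libraries had 0.135, 0 and 0 CPM, against 10.2, 6.46 and 29.5 CPM in mock. Both induced groups lay at or under the floor of 3 counts per library. LHCA6 was called in both (edgeR adjusted p 0.00443 in PHB and 0.000206 in CNA-SmHOX32). Its mock mean was 9.78-fold the mean floor of the induced libraries in PHB and 29.3-fold in CNA-SmHOX32. These ratios of means are not lower bounds, because they leave out the spread of the mock libraries. In PHB the lowest mock library had 1.43 CPM, against a mean floor of 0.819 CPM. In CNA-SmHOX32 it had 6.46 CPM, against a mean floor of 0.526 CPM. With LHCA6 set at those ratios, the median log2 fold change of the 44 genes was still -1.48 in PHB and -1.29 in CNA-SmHOX32. LHCA6 lay below the median either way, so this median could not have moved.

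All 12 genes of photosystem I subunits were called lower in the mean of the 8 inductions, with a median log2 fold change of -1.23. All 12 were called lower in CNA-PpHOX32, CNA-KnC3HDZ_8m, CNA, PHB and PHB-SDdelta, in CNA-SmHOX32 11, in CNA-SDdelta 8 and in CNA-KnC3HDZ 2. PSAH2 led them with -2.25 ± 0.10 (SE). PSAH, with PSAL and PSAO, forms the side of photosystem I at which mobile LHCII docks, and PSAL and PSAO had mean responses of -1.01 ± 0.07 and -1.05 ± 0.06. PSAD1 and PSAD2, copies of the stromal subunit at which ferredoxin docks, had -1.84 ± 0.08 and -1.82 ± 0.11. PSAE1 and PSAE2, copies of its stromal neighbour, had -1.40 ± 0.08 and -0.92 ± 0.08. PSAK, on the LHCA side, and PSAN, on the lumenal side, were called lower in all 8 lines. Their mean responses were -1.62 ± 0.08 and -1.50 ± 0.08. PSAF, the plastocyanin-binding subunit, and PSAG were at -0.80 ± 0.06 and -1.01 ± 0.07.

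All 11 genes of photosystem II subunits were called lower in the mean of the 8 inductions, with a median log2 fold change of -1.31. By line, 3 of the 11 were called lower in CNA-KnC3HDZ, 9 in CNA-SDdelta, 10 in CNA, CNA-KnC3HDZ_8m and CNA-SmHOX32, and 11 in PHB, PHB-SDdelta and CNA-PpHOX32. PSBS, the sensor of lumenal acidity that triggers heat dissipation of excess light, led them with -2.23 ± 0.10 (SE, adjusted p 3.04e-27) and was called lower in all 8 lines. In CNA-KnC3HDZ, where most of the 44 genes were not called, PSBS averaged 34.8 ± 8.67 CPM in induced and 154 ± 14.9 CPM in mock seedlings (SD, n = 3 each), giving a log2 fold change of -2.14 ± 0.28 (± SE) at an adjusted p of 1.45e-07. Of the oxygen-evolving complex, PSBO2 was called lower in 8 lines (-1.38 ± 0.07 in the mean) and its copy PSBO1 in 6 (-0.84 ± 0.06). PSBP1, PSBQ1 and PSBQ2, further subunits of that complex, had mean responses of -1.18, -1.63 and -1.50. The small subunits PSBW, PSBX, PSBY and PSBTN lay between -1.38 (PSBTN) and -0.97 (PSBW). PSBR had the second smallest mean response of all members, -0.50 ± 0.06, and was called in 3 lines.

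**Figure D3:**
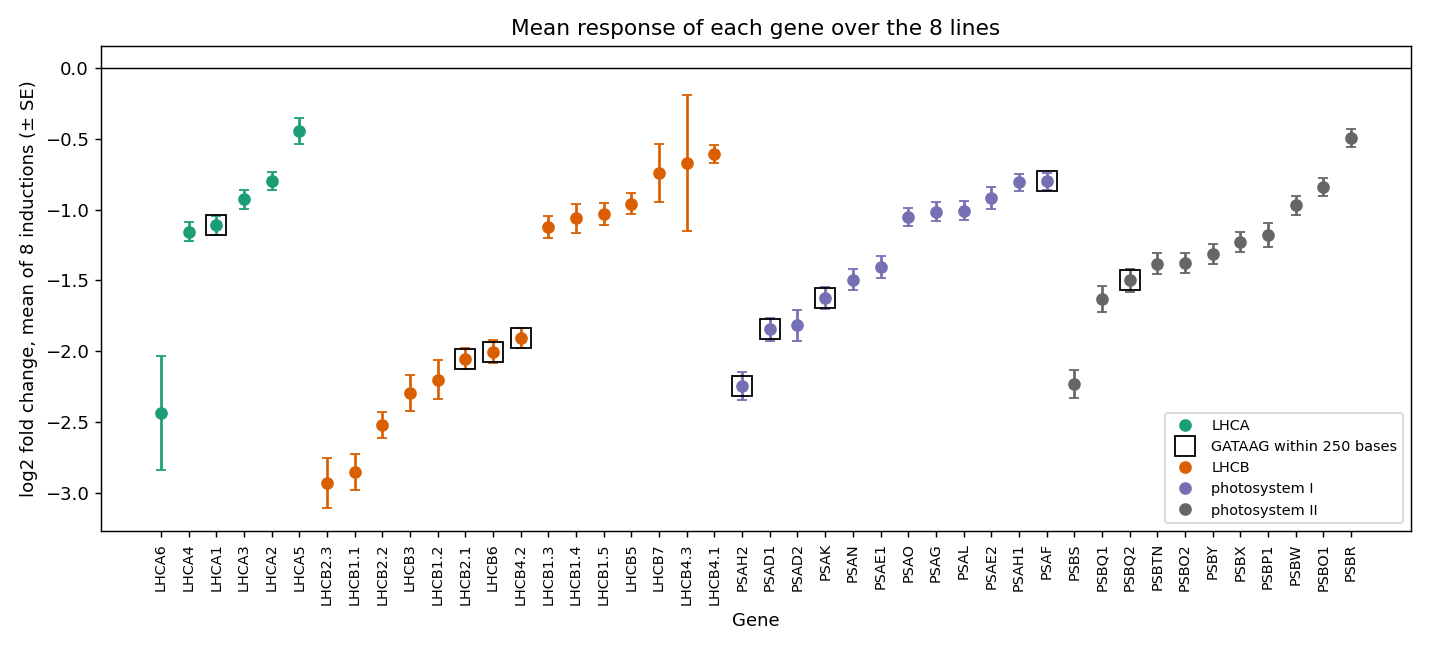
Log2 fold change of each gene over the mean of the 8 inductions (± SE), ordered within LHCA, LHCB, photosystem I and photosystem II, with squares around the 9 genes that hold GATAAG within 250 bases of their start. Values run from -2.93 for LHCB2.3 to -0.45 for LHCA5, and the value of LHCA6 includes 2 lines at the counting floor.

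Within families of copies, the shares shifted between copies as well as the totals. LHCB4.2 took 26.4% ± 2.26 in induced and 47.0% ± 1.34 in mock seedlings of the counts of the 3 LHCB4 genes in CNA (SD, n = 3 each). Over all libraries its share had a median of 27.4% in induced and 47.4% in mock libraries, and in all 8 lines every induced library lay below every mock library. LHCB4.1 took the rest but for LHCB4.3. PSAH2 showed the same separation in all 8 lines, with medians of 15.8% of PSAH counts in induced and 33.8% in mock libraries. In CNA-KnC3HDZ_8m its share was 16.2% ± 7.01 in induced and 44.3% ± 3.14 in mock seedlings, and in PHB-SDdelta 28.7% ± 2.01 in induced and 40.4% ± 1.97 in mock seedlings (SD, n = 3 each). PSBO2 took a median of 9.21% of PSBO counts in induced and 13.8% in mock libraries, apart in 7 lines and overlapping in PHB-SDdelta. LHCB1.1 took a median of 4.34% of LHCB1 counts in induced and 14.8% in mock libraries, apart in the same 7 lines. LHCB2.1 gained share within LHCB2, with medians of 73.0% in induced and 65.4% in mock libraries, and was apart in 6 lines. The PSAE split moved in 4 lines, with PSAE1 at a median of 64.6% in induced and 72.4% in mock libraries. PSBQ1 and PSBQ2 overlapped in all 8 lines. For PSAD1, induced libraries lay below mock in 2 lines and above in 1. These shares are descriptions with no test. The copies of PSAH and of LHCB4 share runs of at most 14 bases within their last 500 exonic bases.

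**Figure D4:**
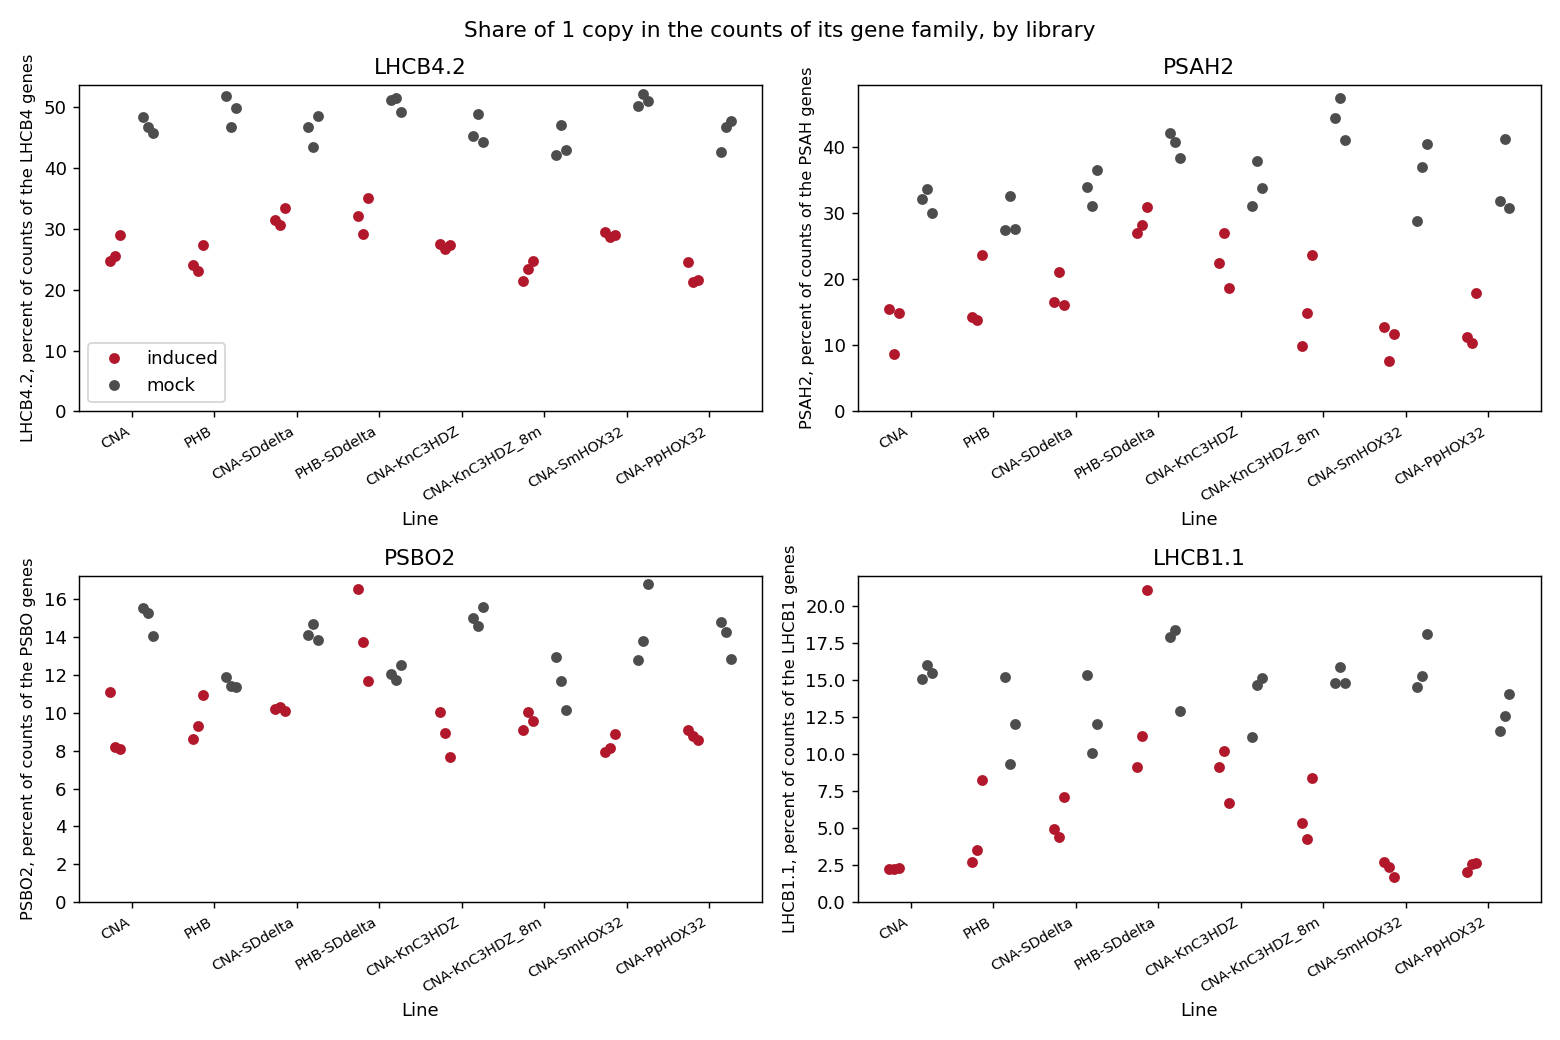
Share of LHCB4.2, PSAH2, PSBO2 and LHCB1.1 in the counts of their gene families, in percent, in each library by line, induced left of mock. LHCB4.2 and PSAH2 separate in all 8 lines, and PSBO2 and LHCB1.1 overlap in PHB-SDdelta.

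The size of the response differed between lines for 35 of the 44 genes (edgeR quasi-likelihood F test over the 8 inductions, background 8.92%). By subgroup these were 6 of 6 LHCA, 12 of 15 LHCB, 11 of 12 photosystem I and 6 of 11 photosystem II genes. The smallest adjusted p belonged to LHCB1.1 (7.92e-09) and LHCB1.2 (1.87e-08), followed by LHCB6, PSAH2, LHCB4.2, LHCB3, PSAG, LHCB1.4, LHCA1 and LHCB1.3. Among those not called was LHCB2.1, whose log2 fold change ran from -2.57 to -1.66 over the lines (adjusted p 0.26), and PSBS, which ran from -2.69 to -1.51 (adjusted p 0.208).

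A group of antenna and photosystem I genes responded less in CNA-KnC3HDZ than in CNA. In the difference of the 2 responses, 11 of the 44 genes were called, all with a higher value in CNA-KnC3HDZ, against a background of 0.439% called in that direction, with a median difference of 0.79 over the 44 genes and 0.10 over all tested genes. The leading gene was LHCB6, with 359.7, 681 and 376 CPM in induced and 551, 729 and 697 CPM in mock CNA-KnC3HDZ libraries, beside the CNA values given above. The 2 responses differed by 2.04 ± 0.32 (log2 difference, SE, adjusted p 2.77e-05). The others were LHCA4, LHCB1.1, LHCB1.2, LHCB3, LHCB4.1, LHCB4.2, PSAD1, PSAD2, PSAH1 and PSAH2, with differences from 0.91 (PSAH1) to 2.95 (LHCB1.2). No photosystem II subunit gene was among them. Summed over its copies, LHCB1 was not called in this difference (0.57 ± 0.30, SE, edgeR adjusted p 0.5475). The count of called genes was 19 with no filter on low counts. Without induced replicate 2 of CNA-KnC3HDZ, the library with the largest total, it fell to 4, with LHCB6 at 1.62 (adjusted p 0.00147). The spread was set differently in that fit too, so the fall cannot be credited to the library alone.

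A larger group responded more in CNA-KnC3HDZ_8m than in CNA-KnC3HDZ. In that difference 26 of the 44 genes were called lower (background 1.67%) and 1 higher (background 2.26%). LHCB1.2 led the lower ones. It had 65.7, 33.9 and 127 CPM in induced and 1079.7, 1111 and 919.8 CPM in mock CNA-KnC3HDZ_8m libraries. In CNA-KnC3HDZ it had 257, 747 and 207 CPM in induced and 189, 308 and 346 CPM in mock libraries. The induced libraries of CNA-KnC3HDZ overlapped its mocks, with the largest value in induced replicate 2, while those of CNA-KnC3HDZ_8m were all far below theirs. The log2 difference was -4.32 ± 0.54 (SE, adjusted p 1.90e-08). LHCB3 (-3.14 ± 0.49), LHCB1.1 (-2.34 ± 0.48), LHCB1.4 (-2.19 ± 0.40) and PSAH2 (-2.17 ± 0.38) followed. Summed over its copies, LHCB1 was also called lower in this difference (-1.65 ± 0.30, SE, edgeR adjusted p 7.82e-05). By subgroup, the 27 called were 5 LHCA, 10 LHCB, 8 photosystem I and 4 photosystem II genes. The LHCA genes called lower were LHCA1 to LHCA4, and the other LHCB genes were LHCB1.3, LHCB1.5, LHCB4.1, LHCB4.2, LHCB5 and LHCB6. From photosystem I they were PSAD1, PSAE1, PSAG, PSAH1, PSAH2, PSAL, PSAN and PSAO, and from photosystem II PSBP1, PSBQ2, PSBX and PSBTN. PSAH2 averaged 55.7 ± 27.2 CPM in induced and 437 ± 97.9 CPM in mock seedlings of CNA-KnC3HDZ_8m (SD, n = 3 each), and 136 ± 46.0 CPM in induced and 239 ± 35.9 CPM in mock seedlings of CNA-KnC3HDZ. The mock level of PSAH2 was the higher one in CNA-KnC3HDZ_8m and the induced level the higher one in CNA-KnC3HDZ. LHCA1 averaged 448 ± 51.5 CPM in induced and 1781 ± 310.4 CPM in mock seedlings of CNA-KnC3HDZ_8m, and 796 ± 229.9 CPM in induced and 905 ± 52.1 CPM in mock seedlings of CNA-KnC3HDZ. PSBP1 averaged 519.8 ± 45.6 CPM in induced and 1386 ± 129 CPM in mock seedlings of CNA-KnC3HDZ_8m, and 1033 ± 123 CPM in induced and 1224 ± 68.3 CPM in mock seedlings of CNA-KnC3HDZ. LHCA5 was the 1 gene called in the other direction. It had 50.0, 50.2 and 54.3 CPM in induced and 44.7, 54.0 and 46.2 CPM in mock CNA-KnC3HDZ_8m libraries, and 35.3, 39.9 and 34.4 CPM in induced and 76.3, 76.3 and 86.2 CPM in mock CNA-KnC3HDZ libraries. The log2 difference of LHCA5 was 1.21 ± 0.36 (SE, adjusted p 0.0373), and the call was lost with no filter on low counts. Without induced replicate 2 of CNA-KnC3HDZ, in a fit that also set the spread differently, 15 genes were called, all lower. LHCB1.2 was then at -3.51 (adjusted p 1.14e-06) and LHCA5 at 1.3 (adjusted p 0.0523).

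**Figure D5:**
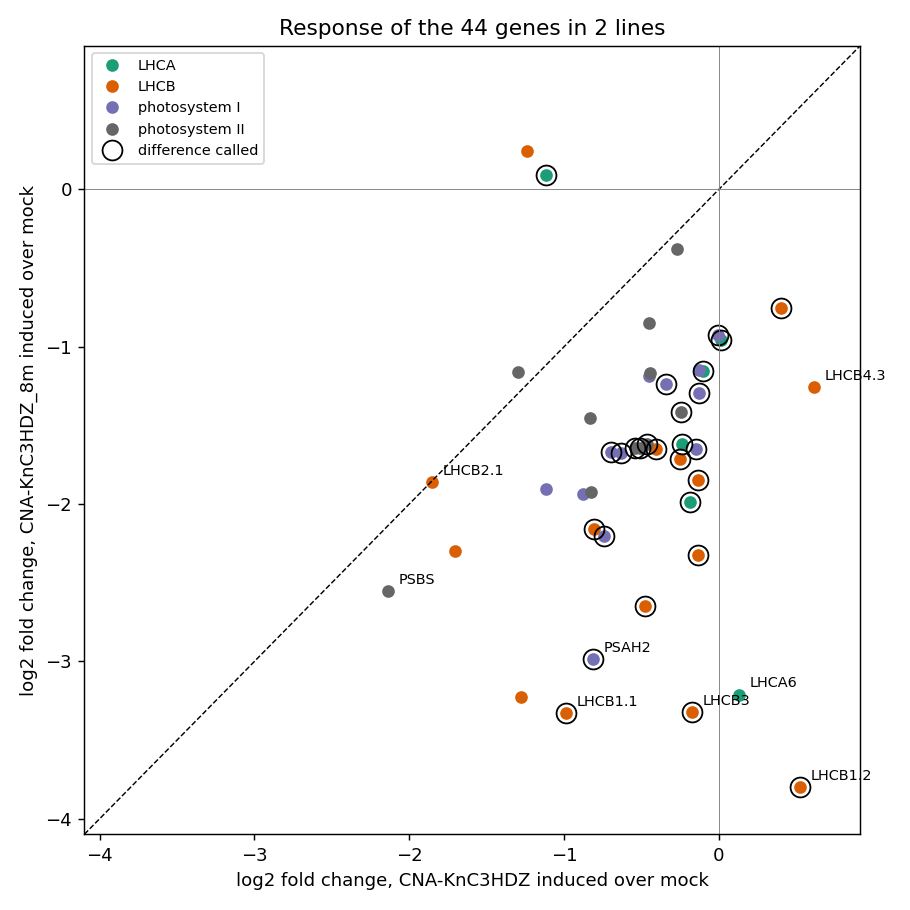
Log2 fold change, induced over mock, of the 44 genes in CNA-KnC3HDZ (horizontal) and CNA-KnC3HDZ_8m (vertical), coloured by subgroup, with rings around the 27 genes whose responses were called different and a dashed line of equal response. Most points lie below the line, while LHCB2.1 and PSBS lie near it and LHCA5 above it.

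The other 5 differences had 0 to 2 members called each. Between PHB and CNA, 2 were called, both lower in PHB (background 0.899%), with a median difference of -0.14 over the 44 genes and 0.05 over all tested genes. They were LHCB1.5, with a log2 difference of -1.3 ± 0.31 (SE, adjusted p 0.0112), and LHCA6 (adjusted p 0.0488), at its floor in induced PHB. LHCB1.5 had 1556, 1343 and 1149.8 CPM in induced and 3679, 3994 and 4374 CPM in mock PHB libraries, and 2019, 4420.4 and 3114 CPM in induced and 3302, 4017 and 4185 CPM in mock CNA libraries. In CNA the groups of LHCB1.5 overlapped, and in PHB they did not. Summed over its copies, LHCB1 was not called between PHB and CNA (-0.72 ± 0.30, SE, edgeR adjusted p 0.301). LHCB1.5 was also the 1 gene called between CNA-PpHOX32 and CNA, lower in CNA-PpHOX32 (background 0.698%), with a log2 difference of -1.26 ± 0.31 (SE, adjusted p 0.028). It had 2004, 1660.3 and 1205 CPM in induced and 2873, 5849 and 5347 CPM in mock CNA-PpHOX32 libraries. That call was lost when only the libraries of both lines entered the fit, and also with a block for same-numbered replicates of a line. With that block 1 gene was called between PHB and CNA. Summed over its copies, LHCB1 was not called between CNA-PpHOX32 and CNA (-1.05 ± 0.30, SE, edgeR adjusted p 0.07725). Below the threshold for a call, 41 of the 44 genes had a negative difference between CNA-PpHOX32 and CNA, with a median of -0.53 over the 44 genes and 0.02 over all tested genes. At an unadjusted p under 0.05, 16 were lower and 0 higher, against 11.9% of all tested genes in either direction. Both differences share the CNA libraries. Between CNA-SmHOX32 and CNA, LHCA6 was the 1 gene called, lower in CNA-SmHOX32 (background 1.61%, median difference -0.04 over the 44 genes and 0.15 over all tested genes, adjusted p 0.00322). It had 2.25, 16.2 and 4.41 CPM in induced and 4.79, 7.02 and 1.52 CPM in mock CNA libraries, groups that overlap.

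The SDdelta lines were compared with CNA and PHB, and neither comparison called a member. The level of induction differed within both pairs. The CNA gene had a log2 fold change of 0.99 in CNA-SDdelta and 1.89 in CNA. The PHB gene had one of 2.06 in PHB-SDdelta and 3.65 in PHB. The part of the induction level in the differences below was not tested. Between CNA-SDdelta and CNA, 0 of the 44 genes were called by edgeR (background 0.106%) and 0 by DESeq2, with 6 higher and 0 lower at an unadjusted p under 0.05 (7.99% of all tested genes in either direction) and a median difference of 0.32 (0.08 over all tested genes). Between PHB-SDdelta and PHB, 0 were called by edgeR (background 0.111%) and 0 by DESeq2, with 8 higher and 0 lower at an unadjusted p under 0.05 (5.44% of all tested genes in either direction) and a median difference of 0.25 (0.09 over all tested genes). The gene nearest to a call was LHCB1.1 in both, with log2 differences of 1.71 ± 0.48 (SE, adjusted p 0.196) and 2.00 ± 0.48 (SE, adjusted p 0.0773). With no filter on low counts 2 and 5 genes were called, all higher in the SDdelta lines.

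The mock groups differed too. The level of 39 of the 44 genes differed among the 8 mock groups (edgeR F test, background 17.9%), with the smallest adjusted p for LHCB2.1 (4.66e-09) and PSBR (2.29e-08). The exceptions were LHCA6, LHCB2.3, LHCB4.3, LHCB7 and PSBS. Ordered by the module mean, the mock groups ran from PHB-SDdelta (9.13), PHB (9.16) and CNA-KnC3HDZ (9.17) over CNA-SmHOX32 (9.48), CNA-PpHOX32 (9.55), CNA-KnC3HDZ_8m (9.62) and CNA (9.73) to CNA-SDdelta (10.00). Neighbours in that order differed by less than the larger of their SDs, with 3 exceptions: CNA-SmHOX32 over CNA-KnC3HDZ, CNA over CNA-KnC3HDZ_8m, and CNA-SDdelta over CNA. By design, each line's response was measured from its own mock level.

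Genes that work beside the photosystems, listed apart from the 44, were mostly called lower too. All 11 genes of electron transport and the ATP synthase were called lower in the mean of the 8 inductions (background 14.3% for this and the following lists), with a median log2 fold change of -0.99. FD1, a ferredoxin, led them with -1.84 ± 0.14, followed by ATPD, the delta subunit of the ATP synthase (-1.65 ± 0.10), and PETE1, a plastocyanin (-1.62 ± 0.09). Of 16 genes for photosystem assembly and antenna insertion, 10 were called lower and 0 higher, with a median of -0.48. CPSRP43, which chaperones LHC proteins on their way to the membrane, was called lower (-1.36 ± 0.06, SE, adjusted p 1.57e-26). Its partners CPSRP54 (-0.20, adjusted p 0.493), CPFTSY (-0.23, adjusted p 0.573) and the insertase ALB3 (-0.12, adjusted p 0.331) were not called. Of 10 genes of light acclimation, 7 were called lower and 0 higher, among them PGRL1A of cyclic electron flow (-1.60 ± 0.10) and STN7, the LHCII kinase (-0.84 ± 0.11).

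Among 10 listed regulators of photosynthesis genes, nuclear or plastid, 8 were called lower in the mean of the 8 inductions and 0 higher. GLK2, a GOLDEN2-LIKE activator of photosystem genes, had a mean response of -1.27 ± 0.08 (SE, adjusted p 1.35e-19) and was called lower in 7 lines. CNA-SDdelta was the exception (-0.47 ± 0.23, SE, adjusted p 0.323). In CNA-KnC3HDZ GLK2 was called lower (-1.56 ± 0.24, SE, adjusted p 4.79e-06). A link between the response of GLK2 and that of the 44 genes was not tested. GLK1, its paralog, had -0.54 ± 0.19 in the mean (adjusted p 0.0285) and was called lower in CNA-PpHOX32 alone among the lines. The GATA factors CGA1 and GNC, which promote chloroplast development, had mean responses of -2.22 ± 0.26 and -0.82 ± 0.10. HY5 and HYH, bZIP factors of light signalling, had -1.07 ± 0.15 and -0.68 ± 0.12. SIG5 and SIG6, sigma factors of the plastid RNA polymerase, had -0.77 ± 0.11 and -0.80 ± 0.15. GUN1, of plastid-to-nucleus signalling, and SIG2 were not called (0.07, adjusted p 0.681, and -0.39, adjusted p 0.134).

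Of the marker lists, that of green tissue was lower in every line, and the others differed in direction between lines or changed in some. All 6 markers of green tissue, genes of carbon fixation outside the 44, were called lower in the mean of the 8 inductions, and their summed CPM was 2316 to 8709 in induced and 6479 to 18373 in mock libraries, apart in every line. No marker of green tissue was at 0 except 1 in an induced CNA-PpHOX32 library. In CNA-KnC3HDZ, where 9 of the 44 genes were called, the green-tissue sum was 5607 ± 1713 in induced and 11884 ± 2759 in mock libraries (CPM, SD, n = 3 each). Of the root markers, 7 of 9 tested were called lower, with summed CPM of 280.5 to 1003 in induced and 427 to 1205 in mock libraries. The root sum was lower without overlap in 5 lines and overlapped in CNA, CNA-KnC3HDZ and CNA-KnC3HDZ_8m. From 1 to 7 of the 11 root markers were at 0 in an induced library, and from 0 to 5 in a mock library. Of 4 epidermis markers, 2 were called lower, with summed CPM of 215 to 574 in induced and 329 to 642 in mock libraries, and none at 0. The epidermis sum was higher in induced than in mock CNA seedlings without overlap, at 532 ± 53.7 in induced and 369 ± 35.9 in mock libraries (CPM, SD, n = 3 each). It was lower without overlap in PHB, CNA-KnC3HDZ, CNA-KnC3HDZ_8m and CNA-SmHOX32, and overlapped in the other 3 lines. Of 4 vascular markers, 1 was called lower and 1 higher, with summed CPM of 72.1 to 224 in induced and 52.4 to 190.1 in mock libraries, and up to 2 at 0. The vascular sum was higher without overlap in both SDdelta lines and overlapped in the other 6. Of 3 shoot meristem markers, STM and CLV3 were tested and not called (adjusted p 0.179 for STM). The summed CPM of all 3 was 0 to 16 in induced and 0 to 11.7 in mock libraries, with up to 3 at 0. At these low levels the shoot meristem sum was lower without overlap in CNA, CNA-SDdelta and CNA-SmHOX32, and overlapped in the other lines. Some clock genes moved as well. CCA1 and LHY, expressed at dawn, were called lower (-1.08 ± 0.10 and -0.93 ± 0.08, background 14.3%). Of the evening genes, TOC1 (1.03 ± 0.17), ELF4 (1.90 ± 0.41), LUX (1.2 ± 0.28) and PRR5 (1.43 ± 0.32) were called higher, and GI was not called. The share of all tested genes called higher is not given here. The clock list also held PRR9 and PRR7, whose values are not given here, so these genes are a part of the list. The part of cell-type makeup and of clock phase in the results on the 44 genes was not tested.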

How the data were processed

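The deposited tables hold whole-number counts of reads per gene, made by the authors from 3' end libraries of whole seedlings. The submitters' processing notes name Trimmomatic, STAR, featureCounts, DESeq2 and the TAIR10 build, with no versions, and the strand setting is not given in the sources used here. Of the 44 genes, 17 overlap another annotated gene, 2 of them on the same strand (PSAD2 and PSBP1), so their counts can hold reads of a neighbour. Reads shared by close copies can be lost or split.

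Counts were scaled with TMM and tested with edgeR 4.0.16 (quasi-likelihood F test, R 4.3.3) in 1 fit of all 48 libraries with a mean per group, on the 18909 genes kept by filterByExpr. Each of 18 comparisons was adjusted by the Benjamini-Hochberg method over those genes, with a threshold of 0.05. The common biological coefficient of variation was 60.9%. The SE of a log2 fold change was taken from the F statistic. Log2 CPM carry a prior count of 2. With 3 against 3 libraries the precision is limited by their number as well as by depth, and low counts such as those of LHCA6 were set against a floor of 3 counts per library. The floor covers counting error only. P-values measure the spread between samples that the labels call biological replicates, and replicate pairs differed by more than sampling noise (chi-square per degree of freedom 9.67 to 52.8).

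On simulated data with 200 genes changed by a log2 fold of 2 in CNA, 95% were called, with 7 calls among the unchanged of 18909 genes. The changed genes were drawn from well-counted genes, with as many raised as lowered, and the spread followed the fitted trend. The 95% therefore does not cover smaller changes or genes with low counts. Alternatives were DESeq2 1.42.0, other scalings, filters and a prior count of 0.5, libraries thinned to the smallest total, summed LHCB1 and LHCB2 copies, GC correction, a replicate block, fits of only the compared lines and leaving out each library. Named with values in every library were, per induction, the called member with the smallest adjusted p, and the 2 members with the largest mean responses. Members called in a difference between lines, or among the 10 smallest adjusted p in the F test among lines, were named too, the leading ones with means and SD. Other members are named by role. The members, lists and tests were chosen with earlier results of these data known. Promoters, gene positions and 3' ends come from RefSeq TAIR10.1. All 44 identifiers matched its gene table.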

Additional observations from a re-analysis of the deposited data

Results flagged for a closer look

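Responses of the photosystem and light-harvesting genes that differed between lines, by a test of the difference itself, are given here as values. Over the 8 lines the response differed for 35 of the 44 genes. Between PHB and CNA it differed for 2, among them LHCB1.5 (log2 difference -1.3). Between CNA-KnC3HDZ and CNA it differed for 11, led by LHCB6 (2.04). Between CNA-KnC3HDZ_8m and CNA-KnC3HDZ it differed for 27, with LHCB1.2 lowest (-4.32) and LHCA5 the 1 gene higher (1.21). Between CNA-SmHOX32 and CNA it differed for 1, LHCA6 (adjusted p 0.00322, edgeR), which had 0 or 1 count in the induced CNA-SmHOX32 libraries. Between CNA-PpHOX32 and CNA it differed for 1, LHCB1.5 (-1.26).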

How the results depend on the processing

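Direction was compared for the module means of the lines and for the members named under a comparison, and none of these reversed in the alternatives run for them. The direction of the other members was not compared. The counts of called members differed by more than 1.5 times from those reported in these cases. With no filter on low counts, 14 members were called in CNA-KnC3HDZ, 2 between CNA-SDdelta and CNA, 5 between PHB-SDdelta and PHB, 19 between CNA-KnC3HDZ and CNA, 3 between CNA-SmHOX32 and CNA, and 5 between CNA-PpHOX32 and CNA. With a mean of at least 10 counts, 2 were called between CNA-PpHOX32 and CNA, and with DESeq2 3. With only the libraries of the compared lines, 18 were called in CNA-KnC3HDZ, 1 between CNA-SDdelta and CNA, 1 between PHB-SDdelta and PHB, and 0 between CNA-PpHOX32 and CNA. With LHCB1 and LHCB2 copies summed, 1 was called between PHB and CNA and 0 between CNA-PpHOX32 and CNA. Same-numbered libraries of a line did not deviate together (highest correlation of the deviations 0.0778), and with the replicate block 1 was called between PHB and CNA and 0 between CNA-PpHOX32 and CNA. LHCB1.5 in the last difference was then at -1.17 (adjusted p 0.0699), against -1.26 (adjusted p 0.222) with only the compared lines. LHCA5 between CNA-KnC3HDZ_8m and CNA-KnC3HDZ was at 1.17 (adjusted p 0.105) with no filter. The causes were not tested.

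Leaving out each library in turn, the called members ranged from 33 to 38 in CNA, 39 to 41 in PHB, 20 to 32 in CNA-SDdelta, 34 to 38 in PHB-SDdelta, 6 to 13 in CNA-KnC3HDZ, 37 to 38 in CNA-SmHOX32 and 40 to 41 in CNA-PpHOX32, and stayed at 39 in CNA-KnC3HDZ_8m. For the differences that use CNA-KnC3HDZ, its induced replicate 2 alone was left out, an alternative chosen after seeing the data, which left 4 members called against CNA and 15 for CNA-KnC3HDZ_8m. All fits without a library took the trend of spread from all 48 libraries as given, a setting the main fit did not use. Their counts can therefore differ from the main ones through that setting as well as through the library. In CNA-SmHOX32 every such fit gave fewer called members than the 40 of the main fit. LHCA6 and LHCB4.3 are limited by depth.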
